A study of Mus musculus with 2 samples.

Results

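The genes described here are 10 ligands and receptors of the B7 and CD28 families, chosen by symbol from the deposited gene count table of 54532 mouse genes. They comprise 6 ligand genes (Cd274, Pdcd1lg2, Cd80, Cd86, Icosl and Vtcn1) and 4 receptor genes (Pdcd1, Ctla4, Cd28 and Icos). Each symbol matched 1 row, and all 10 passed the low-count limit of a mean of 1 CPM (counts scaled to library size) over both libraries, as did 14775 genes in all. The libraries were made from whole tumours of Hepa1-6, a mouse hepatocellular carcinoma line, grown in C57BL/6 mice, which have an intact immune system. In the vector group the injected cells carried a control lentivirus with GFP and a puromycin resistance gene. In the IRF8 group the lentivirus carried an IRF8 overexpression construct beside the same GFP and puromycin cassette. Both cell populations were injected into the same mouse, 1 on each side. The promoter of the construct, the number of clones, and the age and sex of the mice were not given in the sources used here. Host and tumour cells are both of mouse origin, so their reads cannot be told apart.

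There was 1 library per group, with 20223649 counts for vector and 17316607 for IRF8. No test, p-value or standard error could be had, and every difference given below is between these libraries, not between the conditions. Intervals are 95% and cover counting error only; PCR copies were not marked. Irf8, the gene of interferon regulatory factor 8, was counted 4178 times under the vector label and 2578 times under the IRF8 label, or 209.5 and 146.8 CPM. Its level was thus 1.43-fold lower (1.358 to 1.499) in the library whose label names its overexpression. The libraries are therefore called vector-labelled and IRF8-labelled, and every direction rests on those labels. Defining genes of the labelled hepatoma were present in both, with 74718 and 32892 counts of Alb and 51825 and 16458 of Afp. Skeletal muscle markers (5 genes) summed to 5.46 and 219.4 CPM (vector-labelled first, here and below), and adipocyte markers (5 genes, with Lep at 0 counts in the vector-labelled library) to 3.31 and 61.4 CPM. The part of these tissues in the results was not tested.

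T cells need a signal through the antigen receptor and a second signal through CD28, which binds CD80 and CD86 on antigen-presenting cells. CTLA-4 binds the same pair of ligands more tightly and restrains the response, and ICOS is a related costimulatory receptor with its own ligand. PD-1 is an inhibitory receptor of activated T cells whose ligands, PD-L1 and PD-L2, are induced by interferon gamma on tumour and myeloid cells. Antibodies against PD-1, PD-L1 and CTLA-4 are used to treat hepatocellular carcinoma.

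Among these genes, all 4 receptors had lower levels in the IRF8-labelled library, while the ligands went both ways. Cd28, the costimulatory receptor, differed most, at 2.26-fold lower (1.72 to 3.00). Vtcn1, the gene of the inhibitory ligand B7-H4, stood at the other end, at 1.99-fold higher (1.64 to 2.42). Cd274, which encodes PD-L1 and had by far the highest level of the 10, was close to equal at 1.09-fold lower (1.04 to 1.14).

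By a log2 ratio of at least 1 in size, 1 of the 10 genes (Cd28) was lower, against 2.77% of all 14775 measured genes, and 0 were higher, against 2.59%. At a limit of 1.5-fold, 3 of 10 were lower (Cd28, Ctla4 and Icos), against 6.08%, and 1 was higher (Vtcn1), against 7.78%. Ctla4 was inside the 1.5-fold limit, at -0.57, once the vector-labelled library was thinned to the depth of the other. Counting intervals lay below equality for 6 of 10 genes, against 25.8%, and above it for 2 of 10, against 23.5%. The width of such an interval depends on a gene's count, so these shares describe depth as well as difference. The median log2 ratio was -0.20 over the 10 genes, -0.65 over the 4 receptors and 0.07 over the 6 ligands, beside -0.0012 over all measured genes.

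**Figure D1:**
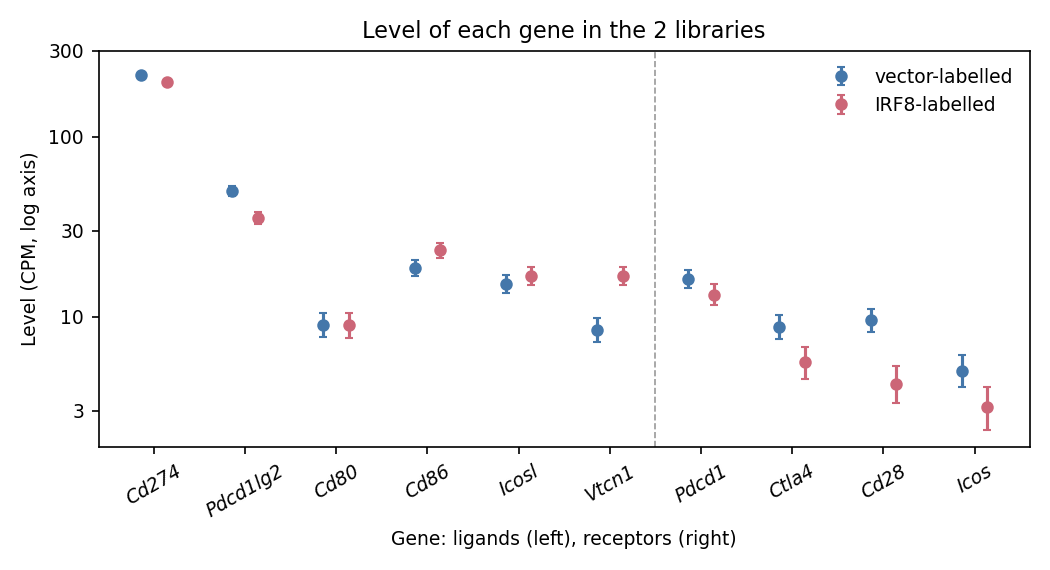
Level of each gene in CPM (log axis) in the vector-labelled (blue) and IRF8-labelled (red) library, 1 library per group; bars are 95% exact Poisson intervals. Cd274 stands above 200 CPM in both libraries, the 4 receptors are lower in the IRF8-labelled library, and the intervals of Vtcn1 lie apart, at 8.47 and 16.9 CPM.

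Upstream sequences from the RefSeq promoter table (GRCm38.p6, the same assembly as mm10) were matched for 7 of the 10 genes; Cd86, Cd28 and Icos had no entry. Shown are the 250 bases before the annotated start of the neighbouring PD-1 ligand genes, of Ctla4 (the receptor with an entry that was at least 1.5-fold lower) and of Vtcn1 (the gene that was higher). All lie on the plus strand, at chr19:29367188-29367437 for Cd274, chr19:29410669-29410918 for Pdcd1lg2, chr1:60908775-60909024 for Ctla4 and chr3:100825209-100825458 for Vtcn1. The deposited Ctla4 model begins further upstream, at 60887000, so its window lies inside that model. Of the windows not shown, that of Cd80 (38458683-38458932) also lies inside its deposited model, which begins at 38455561. The Icosl window (78069118-78069367) runs past the start of its model, at 78069302. Capitals mark a match to an element of the interferon regulatory factors, GAAANNGAA, read on either strand.
Cd274: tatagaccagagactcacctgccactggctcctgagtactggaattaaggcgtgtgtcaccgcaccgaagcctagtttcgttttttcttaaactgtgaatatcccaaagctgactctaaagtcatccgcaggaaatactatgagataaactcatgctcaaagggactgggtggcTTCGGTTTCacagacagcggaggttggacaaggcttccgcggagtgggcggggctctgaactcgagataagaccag
Pdcd1lg2: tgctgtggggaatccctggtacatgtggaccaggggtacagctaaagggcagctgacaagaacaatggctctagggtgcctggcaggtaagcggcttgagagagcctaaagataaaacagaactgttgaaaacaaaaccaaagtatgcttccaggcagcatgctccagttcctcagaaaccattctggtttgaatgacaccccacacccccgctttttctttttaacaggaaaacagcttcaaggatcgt
Ctla4: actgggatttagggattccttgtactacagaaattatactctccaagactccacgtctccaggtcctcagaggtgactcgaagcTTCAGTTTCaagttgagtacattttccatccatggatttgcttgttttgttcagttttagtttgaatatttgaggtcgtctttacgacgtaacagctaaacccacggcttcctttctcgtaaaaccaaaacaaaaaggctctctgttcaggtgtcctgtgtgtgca
Vtcn1: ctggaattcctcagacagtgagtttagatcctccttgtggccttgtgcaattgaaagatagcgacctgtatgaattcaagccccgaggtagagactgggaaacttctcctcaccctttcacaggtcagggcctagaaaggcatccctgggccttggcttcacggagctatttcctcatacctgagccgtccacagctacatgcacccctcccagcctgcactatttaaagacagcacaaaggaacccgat

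The interferon regulatory factor element was found in 2 of the 7 windows, in both on the minus strand. In Cd274 it covered bases -76 to -68 before the start, and in Ctla4 bases -166 to -158. It occurs in 7.13% of the 32851 windows of the same length in the table. The interferon gamma activated site TTCNNNGAA was in 0 of 7 (7.02% of all windows), the AP-1 site TGANTCA in 1 of 7, that of Cd80 (6.75%), and the box TATAAA in 0 of 7 (12.4%). The short NFAT core GGAAA, bound by a factor of T cell activation, was in 5 of 7 windows (55.6%). All were searched on both strands, and no match overlapped another in these windows. A match gives the letters only, since binding was not measured.

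Cd274 (ENSMUSG00000016496, chromosome 19, 29367455 to 29388095, plus strand) was represented by 4361 vector-labelled and 3521 IRF8-labelled counts. These are 218.6 CPM (212.2 to 225.2) and 200.5 CPM (194.0 to 207.3), and the log2 ratio was -0.12 (-0.19 to -0.06). The intervals do not overlap, but the difference is small beside most of the other genes of the axis.

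Pdcd1lg2, the gene of PD-L2, the second PD-1 ligand, lies next to Cd274 (29410919 to 29471157, plus strand). It had 992 and 619 counts, or 49.7 CPM (46.7 to 52.9) and 35.3 CPM (32.5 to 38.1). Its level was 1.41-fold lower (1.27 to 1.56) in the IRF8-labelled library. PD-L2 transcripts thus made up a smaller part of the PD-1 ligand reads there: per base of gene model, the Pdcd1lg2 level was 0.501 of that of Cd274 with the vector label and 0.387 with the IRF8 label. The ratio between the libraries was 0.773 (0.691 to 0.864).

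Cd80 and Cd86 encode the ligands that CD28 and CTLA-4 share. Cd80 (chromosome 16, 38455561 to 38496335, plus strand) had 180 and 157 counts, or 9.02 CPM (7.75 to 10.4) and 8.94 CPM (7.60 to 10.5). The fold was 0.991 (0.795 to 1.23), so a difference within that interval was not detectable at this depth. Cd86 (chromosome 16, 36603869 to 36666081, minus strand) had 371 and 411 counts, or 18.6 CPM (16.8 to 20.6) and 23.4 CPM (21.2 to 25.8). It was 1.26-fold higher (1.09 to 1.45) in the IRF8-labelled library. Cd86 exceeded Cd80 in both libraries, by 2.08 and 2.65 times per base of gene model, and the ratio of these ratios, 1.27, had an interval that held 1 (0.975 to 1.65).

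Icosl, the ligand of ICOS (ENSMUSG00000000732, chromosome 10, 78069302 to 78083913, plus strand), had 302 and 297 counts. Its level was 15.1 CPM (13.5 to 16.9) and 16.9 CPM (15.05 to 18.95), and the fold of 1.12 had an interval that held 1 (0.949 to 1.32). Vtcn1 (ENSMUSG00000051076, chromosome 3, 100825459 to 100896922, plus strand) had 169 and 296 counts. Its level was 8.47 CPM (7.24 to 9.85) and 16.9 CPM (14.99 to 18.89), a log2 ratio of 0.98 (0.72 to 1.27). Of the 6 ligands, 2 had intervals below equality (the PD-1 ligands), 2 above it (Cd86 and Vtcn1) and the other 2 held it.

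The 4 receptor genes were read at 55 to 323 counts. Pdcd1, which encodes PD-1 (chromosome 1, 94038305 to 94052553, minus strand), was represented by 323 vector-labelled and 233 IRF8-labelled counts. These are 16.2 CPM (14.5 to 18.1) and 13.3 CPM (11.6 to 15.1), 1.22-fold lower (1.03 to 1.45). It was the receptor with the smallest difference, and its CPM intervals overlap.

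Cd28 (ENSMUSG00000026012, chromosome 1, 60716800 to 60773359, plus strand) had 190 and 74 counts, or 9.53 CPM (8.22 to 11.0) and 4.21 CPM (3.31 to 5.29). Its log2 ratio was -1.16 (-1.58 to -0.78). Ctla4 (chromosome 1, 60887000 to 60915832, plus strand) had 175 and 98 counts, or 8.77 CPM (7.52 to 10.2) and 5.58 CPM (4.53 to 6.80), 1.57-fold lower (1.22 to 2.03). Icos (chromosome 1, 60977927 to 61000320, plus strand) had 100 and 55 counts, or 5.01 CPM (4.08 to 6.10) and 3.13 CPM (2.36 to 4.08), 1.60-fold lower (1.14 to 2.27). The intervals of Cd28 and Ctla4 do not overlap between the libraries, and those of Icos meet at 4.08 CPM. Other genes overlapping any of the 10 models were a pseudogene in Ctla4 (3 and 0 counts) and an unclassified gene in Icos (1 and 0 counts).

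**Figure D2:**
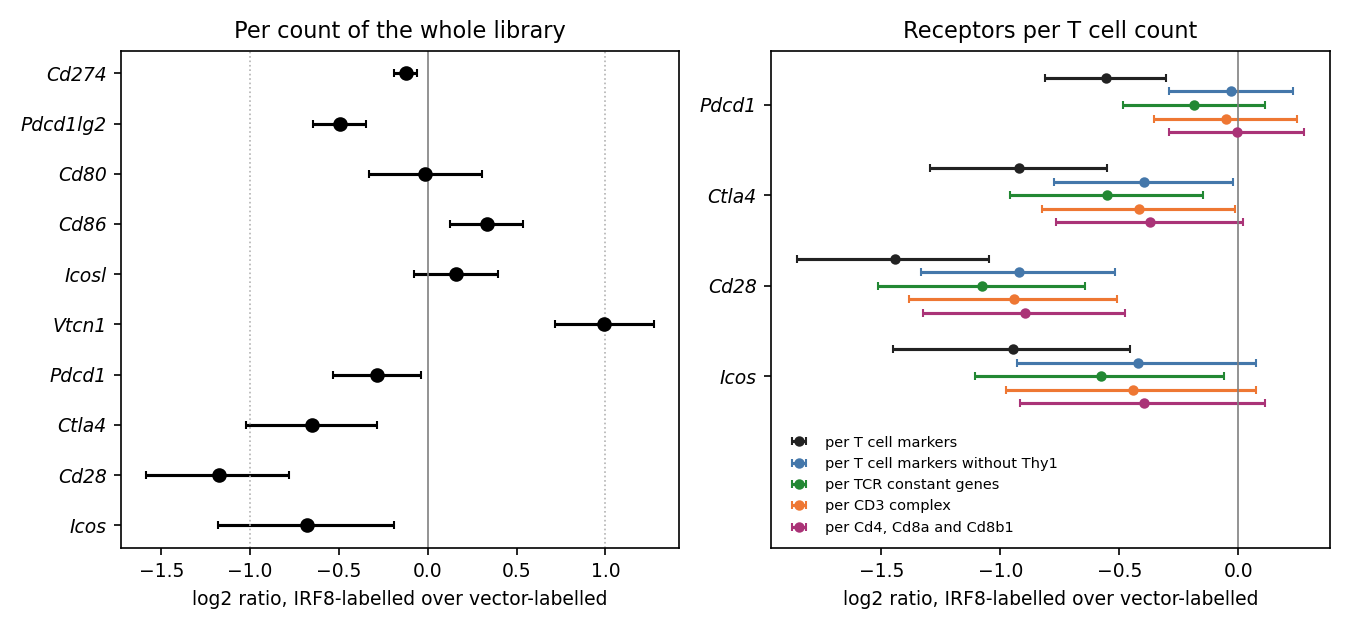
Left, log2 ratio of scaled counts (IRF8-labelled over vector-labelled, no prior count) with 95% counting intervals, and dotted lines at 2-fold. Right, the same ratio for the 4 receptors after dividing by the counts of 5 sets of T cell genes in the same library; Cd28 lies below 0 with every divisor, and Pdcd1 reaches 0 with all but the full marker list.

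The inhibitory receptor PD-1 and the costimulatory receptor CD28 differed in how far apart the libraries were. Pdcd1 counts were 1.70 times Cd28 counts with the vector label and 3.15 times with the IRF8 label, and the ratio of these was 1.85 (1.33 to 2.58). For Ctla4 against Cd28 it was 1.44 (0.982 to 2.11) and for Icos against Cd28 1.41 (0.901 to 2.20), both of which held 1. Cd28, the receptor with the largest difference, is the divisor in each of these ratios. That they lie above 1 follows from this choice, and they are not separate checks. These are ratios of counts of the same gene pair in each library, so gene length does not enter the comparison.

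In bulk tissue, fewer cells of a type and less RNA per cell cannot be told apart, so the receptors were also set against T cell genes. The 14 T cell markers summed to 5452 and 5779 counts, and the 4 receptors together to 788 and 460. This gives 144.5 and 79.6 receptor counts per 1000 T cell marker counts, a ratio of 0.551 (0.487 to 0.622). However, Thy1, a surface protein that fibroblasts also make, held 43.9% and 61.0% of those marker counts, with 2395 and 3527. Without Thy1, a divisor chosen after its values were seen, the other 13 markers summed to 153.3 and 128.3 CPM, a fold of 0.837 (0.792 to 0.884), and 11 of the 13 had log2 ratios below 0. The receptor ratio without Thy1 was 0.792 (0.696 to 0.902). Of all 14 markers, 7 had intervals below equality and 1 (Thy1) above it, against 25.8% and 23.5% of all measured genes.

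Cd28 was low beside each set of T cell genes. Each set is the full list or a part of it, and the same Cd28 counts enter every ratio, so these are not separate checks. The ratio of Cd28 was 0.367 (0.276 to 0.484) per count of the full list and 0.529 (0.396 to 0.699) without Thy1. It was 0.475 (0.350 to 0.640) per count of the T cell receptor constant genes, 0.521 (0.383 to 0.702) per CD3 complex count and 0.538 (0.399 to 0.720) per count of Cd4, Cd8a and Cd8b1. The ratio of Pdcd1 was 0.681 (0.570 to 0.811) with the full list, but 0.979 (0.817 to 1.17) without Thy1 and 0.879, 0.964 and 0.996 with the other divisors, each with an interval that held 1. Ctla4 lay between, at 0.760 (0.584 to 0.985) without Thy1, and held 1 only per count of Cd4, Cd8a and Cd8b1 (0.773, 0.587 to 1.01). Icos was at 0.747 (0.525 to 1.05) without Thy1 and its interval lay below 1 with the full list (0.519) and the receptor constant genes (0.670, 0.464 to 0.960).

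Ctla4 and Icos are also abundant in regulatory T cells, whose defining gene Foxp3 had 67 and 28 counts, 2.11-fold lower (1.34 to 3.40). The 5 measured regulatory T cell markers had a median log2 ratio of -0.09, with Il2ra, the alpha chain of the interleukin 2 receptor, at -0.50 (-0.99 to -0.04) and Ikzf2 at 0.24 (-0.09 to 0.57). The summed list stood at 29.9 and 26.9 CPM, with no marker at 0. Follicular helper T cells, which are rich in ICOS and PD-1, had 4 and 4 counts of their receptor gene Cxcr5, and Sh2d1a, an adaptor shared with other T cells, was at 37 and 11. Bcl6, also on the follicular helper list, went the other way, with 689 and 758 counts (log2 ratio 0.32, 0.17 to 0.47). The median of the 3 measured genes of that list was -0.05. Its sum was 164.7 and 167.5 CPM, most of it from Maf, a transcription factor other cells also express. Natural killer cell markers summed to 15.8 and 13.6 CPM, with Klrk1 at -0.36 (-0.69 to -0.05), Eomes at -0.52 (-1.22 to 0.12) and Klre1 at 0.66 (0.04 to 1.34). The part of these cell types in the receptor values was not tested.

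Antigen-presenting cells express Cd80, Cd86, Icosl and Pdcd1lg2. Macrophage and monocyte markers summed to 411.1 and 387.4 CPM, a fold of 0.942 (0.912 to 0.973), with a median log2 ratio of -0.07 over 8 genes. Dendritic cell markers summed to 261.1 and 317.5 CPM, a fold of 1.22 (1.17 to 1.26). Itgax, at 148.0 and 156.6 CPM, was the largest part of that sum, and the median log2 ratio of the measured markers was 0.15. Of the 9 measured, 5 had intervals above 0 and 1 below, against 23.5% and 25.8% of all measured genes. They included Ccr7, the homing receptor of migrating dendritic cells, at 3.32-fold higher (2.82 to 3.93), Zbtb46 at 0.51 (0.30 to 0.73) and Cd83 at 0.45 (0.32 to 0.58), whereas Clec9a, a marker of cross-presenting dendritic cells, was at -0.44 (-0.83 to -0.07). The intervals of Xcr1 (-0.37, -1.09 to 0.30), Flt3 (-0.23, -1.16 to 0.64) and Batf3 (0.15, -0.11 to 0.42) held 0. Cd209a (13 and 3 counts) and Siglech (7 and 4) were below the low-count limit. B cell markers summed to 28.9 and 35.1 CPM, most of it from Pax5 (352 and 373 counts) and Cd22 (182 and 148). The median log2 ratio of the 4 measured was 0.74, with Blk at 2.03 (1.12 to 3.76) from 7 and 31 counts and Cd79a at 1.22 (0.32 to 2.47) from 12 and 27. None of the markers of these 3 lists was at 0, and their part in the ligand values was not tested.

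B7-H4 is made mainly by epithelial cells in normal tissue and by several carcinomas. Of 7 epithelial markers, Epcam and the tight junction gene Cldn4 were 1.62-fold (1.46 to 1.80) and 1.77-fold (1.62 to 1.93) higher in the IRF8-labelled library. The keratin genes Krt8 and Krt18, which hepatocytes also make, were 1.69-fold (1.65 to 1.74) and 1.57-fold (1.54 to 1.61) lower, and the summed list, of which they hold most, stood at 2203 and 1453 CPM. The other members had 784 and 624 counts (Krt7), 59 and 47 (Krt19) and 79 and 71 (Cdh1), each with an interval that held equality, and the median log2 ratio of the 7 was -0.14. Among skin epithelium markers Krt14 was at 1.29 (0.94 to 1.70) and Krt5 at -0.84 (-1.52 to -0.26), with a sum of 11.6 and 16.1 CPM and Krt1 at 1 and 0 counts. Endothelial markers summed to 105.8 and 99.1 CPM and fibroblast markers to 3316 and 3811 CPM. The hepatoma markers as a sum were lower, at 6948 and 3406 CPM, most of it from Alb and Afp. The median log2 ratio of the 7 was -0.30. Intervals lay below 0 for 4 and above it for 1 (Apob, at 0.10, 0.05 to 0.15), against 25.8% and 23.5% of all measured genes. Hnf4a was at 0.06 (-0.02 to 0.13). The part of these cells in the Vtcn1 values was not tested.

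Levels can be set side by side between genes only per length, here as TPM, which scales counts by the deposited gene lengths and by library. In the vector-labelled library Cd274 was highest at 176.7 TPM, followed by Pdcd1lg2 at 88.5, Pdcd1 at 24.6, Cd86 at 14.9 and Ctla4 at 11.0. Icosl at 9.59, Vtcn1 at 9.46, Cd80 at 7.13, Cd28 at 4.55 and Icos at 4.28 TPM came next. Among neighbours in this order, the counting intervals overlapped for Ctla4 and Icosl, Icosl and Vtcn1, Vtcn1 and Cd80, and Cd28 and Icos. In the IRF8-labelled library the top 3 were in the same order, at 168.2, 65.1 and 20.9 TPM. Vtcn1 moved from the 7th to the 4th place at 19.5 TPM, with Cd86 at 19.4 and Icosl at 11.1, while Ctla4 moved from the 5th to the 8th at 7.28, just under Cd80 at 7.33. Cd28 was the lowest at 2.09 TPM, below Icos at 2.77. Here the intervals overlapped for Pdcd1 and Vtcn1, Vtcn1 and Cd86, Cd80 and Ctla4, and Icos and Cd28. Among measured protein-coding genes, Cd274 lay at percentile 94.2 of the TPM values with the vector label and 93.7 with the IRF8 label, and Cd28 at 18.1 and 8.58.

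Several of these genes share a locus. Cd28, Ctla4 and Icos lie in a row on chromosome 1 and were all lower. The 4 measured neighbours starting within 500 kb, all on the Cd28 side, had a median log2 ratio of -0.03. Raph1, a regulator of actin at the leading edge and the nearest measured protein-coding gene on the Cd28 side, had 4149 and 2389 counts, 1.53-fold lower (1.45 to 1.61). Beyond it, Abi2 was at -0.01 (-0.16 to 0.13).

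Around Cd274 and Pdcd1lg2 on chromosome 19, the 14 measured neighbours had a median of 0.03, from -0.53 to 0.57. None was 1.5-fold apart in either direction, where 86.1% of all measured genes lay within that limit. Next to the pair, the protein-coding gene Plgrkt, a plasminogen receptor, was at 0.16 (0.01 to 0.30) and the long noncoding RNA gene A930007I19Rik, from 66 and 87 counts, at 0.57 (0.10 to 1.07). Ric1, a Golgi transport gene and the next protein-coding gene on that side, was at -0.05 (-0.15 to 0.06). Jak2, the kinase of the interferon gamma receptor, lies in the same window and had 7752 and 7480 counts (log2 ratio 0.13, 0.09 to 0.18).

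Near Vtcn1 on chromosome 3, the 8 measured neighbours had a median of -0.05. Next to it, Man1a2, a mannosidase, was at -0.13 (-0.22 to -0.05) and Trim45 at 0.07 (-0.19 to 0.34). Beyond Trim45, Cd101, another immunoglobulin family gene of leukocytes, had 52 and 121 counts, 2.64-fold higher (1.90 to 3.73), and the T cell gene Cd2 had 196 and 102, 1.69-fold lower (1.32 to 2.17). The medians of neighbours were 0.15 for Cd80 (12 genes), 0.11 for Cd86 (7), -0.02 for Pdcd1 (7) and -0.06 for Icosl (16).

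**Figure D3:**
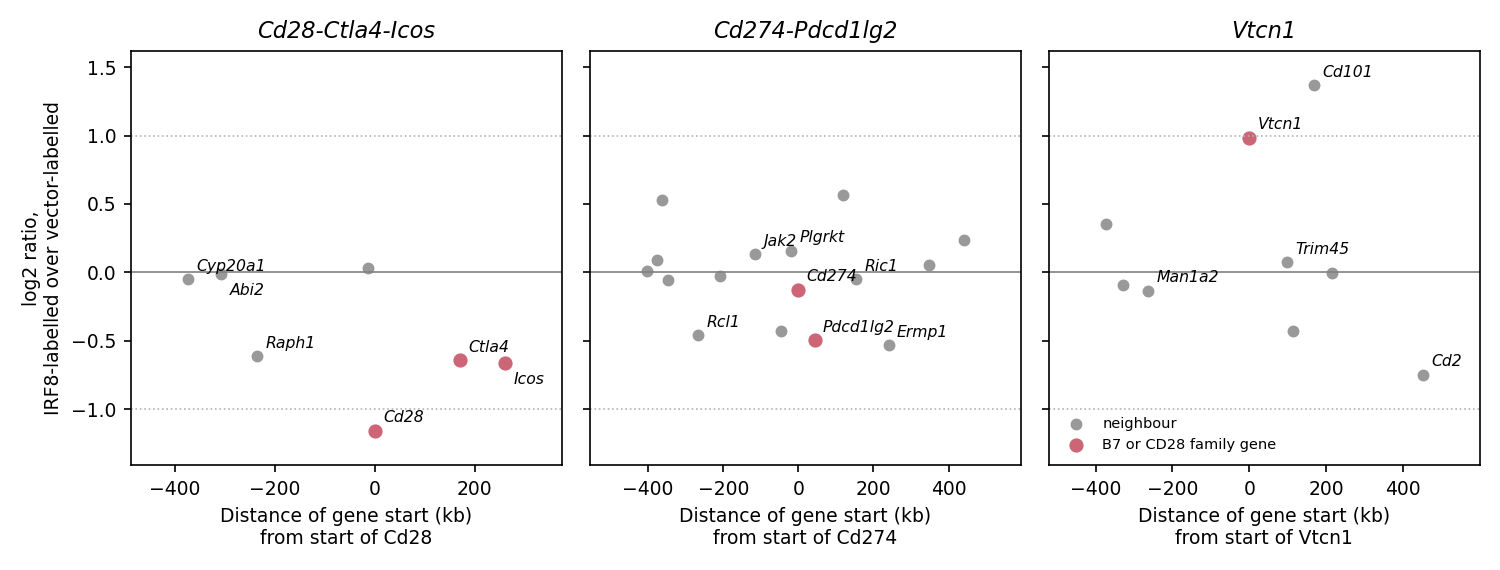
log2 ratio with a prior count of 2 (IRF8-labelled over vector-labelled) of measured genes starting within 500 kb of the Cd28-Ctla4-Icos, Cd274-Pdcd1lg2 and Vtcn1 loci, by distance from the start of the first gene named; dotted lines mark 2-fold. The 3 receptor genes lie at -1.16, -0.64 and -0.66 with Raph1 at -0.61, and Vtcn1 and Cd101 stand above their neighbours at 0.98 and 1.37.

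Other genes of the B7 and butyrophilin families had a median above 0. Of 10 in the table, 7 were measured, and the median log2 ratio was 0.42; 2 were at least 1.5-fold higher and 1 lower, against 7.78% and 6.08% of all measured genes. Ildr2, a B7-like inhibitor of T cells, had 156 and 317 counts, 2.31-fold higher (1.90 to 2.81). Btnl9 was at 0.67 (-0.03 to 1.48), and Btnl2, a butyrophilin-like inhibitor, had 62 and 25 counts, 2.18-fold lower (1.35 to 3.63). Cd276, which encodes B7-H3, had 1697 and 2002 counts, 1.34-fold higher (1.26 to 1.43). Vsir, which encodes the inhibitory protein VISTA, was at 0.05 (-0.07 to 0.18), Btla, an inhibitory lymphocyte receptor, at 0.46 (-0.25 to 1.23), and its ligand Tnfrsf14 at -0.02 (-0.22 to 0.18).

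Downstream of CD28 and the T cell receptor, 19 of 20 genes were measured and had a median of -0.10. Of these, 2 were at least 1.5-fold lower and 0 higher, near the 6.08% and 7.78% of all measured genes. Lck, the kinase that starts T cell receptor signalling and binds CD28, had 335 and 169 counts, 1.74-fold lower (1.45 to 2.11), and Prkcq, the protein kinase C of the T cell synapse, had 49 and 27 (log2 ratio -0.64, -1.41 to 0.03). Nfatc2 was at -0.47 (-0.80 to -0.16), while Zap70 was at -0.12 (-0.43 to 0.19). Il2, the main cytokine target of CD28, had 0 and 2 counts, which the depth does not separate.

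Genes of PD-1 and CTLA-4 signalling and trafficking had a median of -0.06 over 15 measured genes, with 1 at least 1.5-fold lower, against 6.08% of all measured genes. That gene was Sh2d1a, 2.96-fold lower (1.48 to 6.43). The phosphatases that PD-1 recruits were near equal, with Ptpn6 at -0.06 (-0.16 to 0.04) and Ptpn11 at -0.16 (-0.23 to -0.10). Lrba, which protects CTLA-4 from degradation, was 1.35-fold lower (1.21 to 1.504), Nr4a1, a factor of T cell exhaustion and an immediate early gene, was 1.35-fold higher (1.19 to 1.54), and Tox was at -0.30, with an interval from -0.61 that ended just below 0.

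Of 10 genes of PD-L1 induction by interferon gamma, all were measured; intervals lay below 0 for 7 and above it for 2, against 25.8% and 23.5% of all measured genes, and the median was -0.24. Most of these genes have high counts and so narrow intervals. At the 1.5-fold limit, 1 of the 10 was lower (Ifng) and 0 were higher, against 6.08% and 7.78% of all measured genes. Ifng itself had 88 and 35 counts, 2.21-fold lower (1.48 to 3.37). Irf1, a factor known to act on the Cd274 promoter, was at -0.24 (-0.29 to -0.20), and the feedback inhibitor Socs1 was at -0.32 (-0.45 to -0.19). The receptor chain gene Ifngr2 was at 0.32 (0.22 to 0.41). The difference of Cd274, -0.12, was thus smaller in size than that of Irf1 and far smaller than that of Ifng.

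Genes that set the stability of PD-L1 protein had a median of -0.02 over 8, with 0 of them 1.5-fold apart. Of all measured genes, 86.1% lay within 1.5-fold, so a count of 0 in so short a list is not unusual. Cmtm6, which keeps PD-L1 at the cell surface, was at 0.13 (0.03 to 0.22), Cmtm4 at -0.17 (-0.26 to -0.07), and the ubiquitin ligase genes Stub1 and Spop at -0.20 (-0.35 to -0.06) and 0.23 (0.16 to 0.30). Genes tied to ligand expression in antigen-presenting cells had a median of -0.02 over 10 measured. Here too 0 were 1.5-fold apart, beside the same 86.1% of all measured genes within that limit. Besides Irf8, the MHC class II activator Ciita was at -0.39 (-0.49 to -0.29), Relb, an NF-kappaB subunit of mature dendritic cells, at 0.20 (0.09 to 0.30), and Cd40, a receptor that induces Cd80 and Cd86, at -0.05 (-0.21 to 0.12).

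**Figure D4:**
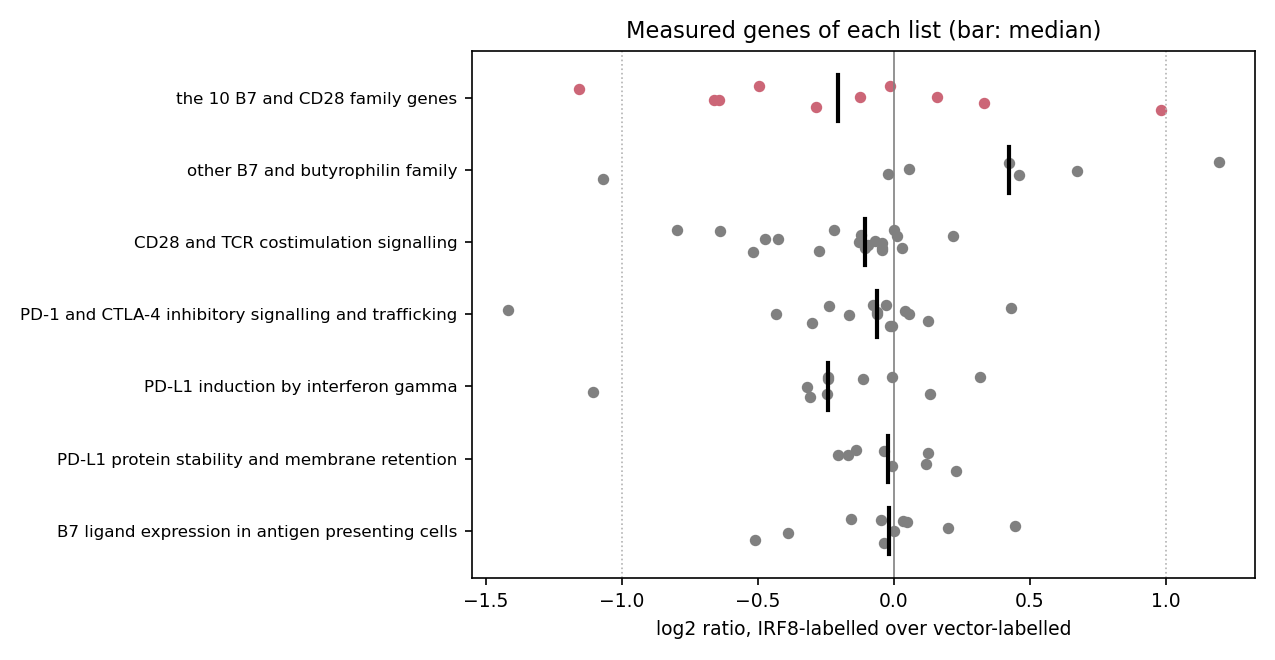
log2 ratio with a prior count of 2 (IRF8-labelled over vector-labelled) of the 10 B7 and CD28 family genes (red) and of the measured genes of 6 related lists (grey); vertical bars are medians and dotted lines mark 2-fold. Medians run from -0.24 for PD-L1 induction by interferon gamma to 0.42 for the other B7 and butyrophilin genes.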

How the data were processed

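The authors deposited raw counts per gene for both libraries. Alignment and counting tools named in the submitters' processing notes are HISAT2 2.0.5 and featureCounts 1.5.0-p3, with the genome build mm10; the treatment of reads mapping to several places was not given in the sources used here. The NEBNext Ultra kit given in the labels' protocols does not, as named, mark strand, so antisense reads cannot be separated. Total counts were 20223649 (vector) and 17316607 (IRF8), and 3 counts correspond to 0.150 and 0.171 CPM. Gene lengths and coordinates (mm10, counted from 1) are those of the deposited table.

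Scaling was by TMM (edgeR 4.0.16 under R 4.3.3). Each log2 ratio used a prior count of 2; folds used none. Intervals of a ratio are Clopper-Pearson intervals of the split of 2 counts, and those of a ratio of ratios are exact conditional intervals (SciPy 1.17.1). Size limits of 2-fold and 1.5-fold apply to the log2 ratio. With 1 library per group the quasi-likelihood test of edgeR could not be fitted. The log2 ratio and its counting interval were tested on simulated Poisson counts scaled by library totals. That simulation held no spread between tumours and did not cover TMM scaling, ratios of ratios, loci or promoter matches. The genes and the lists (14 of cell type markers, 6 of pathways) were chosen with earlier results of these data known. Genes of a list were named by size of the log2 ratio, all members were named, and genes beside them were named by position; other list genes are named for their role and were chosen after their values were seen. Alternatives covered scaling (DESeq2 1.42.0 size factors among them), prior count, filter, depth, divisor and window. Values of some list genes are not reported here.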

Additional observations from a re-analysis of the deposited data

How the results depend on the processing

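Under 6 other choices of scaling, prior count or depth, each of the 10 log2 ratios stayed within its own counting interval, and 9 kept their sign; Cd80, near 0, ran from -0.03 to 0.03. Cd28 ran from -1.20 to -1.12 and Vtcn1 from 0.91 to 1.02. With total counts in place of TMM, 1 gene (Vtcn1) was at least 2-fold higher, where 0 were by TMM. The count of genes at least 1.5-fold lower went from 3 to 2 with the vector-labelled library thinned, where Ctla4 was at -0.57 and no longer past the limit, and to 2 when the filter was raised to 5 CPM, which leaves out Icos. The other counts past a limit did not change. Receptor counts per T cell count depended on the divisor: the ratio of 0.551 for the 4 receptors together became 0.792 without Thy1, 0.711 with the T cell receptor constant genes, 0.780 with the CD3 complex and 0.806 with Cd4, Cd8a and Cd8b1. The share of Thy1 in the marker counts, 43.9% and 61.0%, enters the first value. Within 250 kb, the median of neighbours of Cd28, Ctla4 and Icos was -0.29. The only measured genes there were Raph1, at -0.61, and the pseudogene Eif4a-ps4, at 0.03. No paired analysis was possible because there was 1 library per group. No replicate could be left out. The depth limits Icos and Cd28 most, with 55 and 74 counts in the IRF8-labelled library.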
